A study of Mus musculus with 3 samples.

Results

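The genes described are the 37 genes of the mouse mitochondrial genome, taken as every gene whose symbol starts with mt- in the deposited transcript tables. They are 13 protein genes, 2 ribosomal RNA genes and 22 transfer RNA genes, of 55450 genes found in both kinds of table. They were measured in 3 libraries of 1 group. The cells were C57BL/6J mouse macrophages grown from bone marrow, a primary culture with no transgene or deletion named. They received 100 ng/ml Lipid A, the part of bacterial lipopolysaccharide that Toll-like receptor 4 recognises, for 12 hours. After 12 hours without it they received 100 ng/ml again for 50 minutes. Total RNA from the chromatin fraction was sequenced after ribosomal RNA depletion. Neither age nor sex of the animals is in the labels, which name 1 donor for all libraries. Replicate 1 began with 1 µg, replicate 3 with 500 ng and replicate 2 with 250 ng. Nothing says that the replicates came from separate animals or cultures, so their spread may be technical, and with no second group no effect of Lipid A could be tested.

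Depth was 13897176 to 19597343 expected counts per library in the alignment-based tables and 20743071 to 34961536 estimated counts in the read-based tables. The macrophage identity of the cells was checked on markers: 8 of 8 macrophage genes reached TPM 1 (TPM, a level corrected for gene length and library total) in each of the 3 libraries. None of 8 neutrophil genes and none of 6 T and B cell genes did in the alignment-based tables. Of all protein-coding genes 39.3% did there, and 49.9% in the read-based tables, so missing the threshold is common among all genes. Read-based, the neutrophil gene Cxcr2 passed, at a mean TPM of 4.05. Of the erythroid genes reported here, Alas2 passed, and Hba-a1 and Hbb-bs were at 0. The group and its treatment are the same in all libraries, so the library differences given here are differences within 1 condition.

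Mitochondrial DNA is a small circle that is transcribed inside the organelle from both of its strands into long precursors. Those precursors are cut at the transfer RNAs that lie between most of the other genes, which releases the ribosomal RNAs and the messenger RNAs. All of its protein genes encode core subunits of the respiratory chain or of ATP synthase, which are assembled with many subunits encoded in the nucleus. Pieces of mitochondrial DNA have also been copied into the nuclear chromosomes during evolution, and the mouse carries one such piece on chromosome 1.

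In the annotation used (GENCODE M21 on mm10) the genes run from the first base of the mitochondrial chromosome to base 15422, with 57 bases between genes in total. Of the 15 protein and ribosomal RNA genes, 8 have a transfer RNA gene directly on both sides and 6 on one side. Neighbours also overlap: mt-Atp8 and mt-Atp6 share 43 bases, mt-Nd4l and mt-Nd4 share 7, mt-Atp6 and mt-Co3 share 1, and mt-Nd5 and mt-Nd6 share 14 on opposite strands. The sources used here do not say whether the counting used the strand of the reads, so reads of such shared bases cannot be assigned to 1 gene. The largest overlap is shown in the sequence of mt-Atp8 (this and the other sequences are from the GENCODE M21 transcripts, mm10), an ATP synthase subunit gene at chrM:7766-7969, with the bases that are also the start of mt-Atp6 in capitals.

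mt-Atp8: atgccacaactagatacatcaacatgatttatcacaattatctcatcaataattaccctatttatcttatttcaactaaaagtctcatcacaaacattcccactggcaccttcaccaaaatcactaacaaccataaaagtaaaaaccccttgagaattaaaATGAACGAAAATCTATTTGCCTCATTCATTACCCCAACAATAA

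Of the 13 protein genes, 7 have a near-identical annotated pseudogene on chromosome 1, and this sets what their counts can show. The 7 copies lie at chr1:24611535-24616197 on the minus strand, in the same order as the genes on the mitochondrial genome. Of the 6 spacings between neighbouring copies, 5 equal the spacings between the matching stretches of mitochondrial DNA to the base, and the other differs by 1 base. Aligned without gaps, the block corresponds to chrM:6381-11042. It also spans mt-Atp8 and 5 transfer RNA genes (mt-Ts1, mt-Td, mt-Tk, mt-Tg and mt-Tr), for which no copy of their own is annotated on chromosome 1. The last 43 of the 204 bases of mt-Atp8, those shared with mt-Atp6, do lie in the copy of mt-Atp6, and the chromosome 1 sequence between the copies was not used here. Genes described below as without a chromosome 1 copy, mt-Atp8 among them, are those with no annotated copy there.

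The copies of mt-Co2 (Gm28661, 681 bases), mt-Atp6 (Gm10925, 678 bases), mt-Co3 (Gm28437, 783 bases), mt-Nd4l (Gm10222, 294 bases) and mt-Nd4 (Gm28439, 876 bases) matched the mitochondrial gene at every base over their whole length. The copy of mt-Nd3 (Gm28438, 345 bases) differed at 1 base, the last of the start codon: T3C, counted from the first base of the gene, mt-Nd3 base first. Aligned without gaps, the copy of mt-Co1 (Gm29216, 492 bases) covers bases 1054 to 1545 of the gene. It differed at 6 bases, all within its first 13: T1056A, C1057T, A1059G, A1060G, C1062A and A1066T. The local match found by blastn began later, at chrM:6390, and of the 6 held only A1066T. These stretches are shown because they hold every annotated difference between the pairs inside their aligned bases, marked in capitals.

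mt-Nd3, first 28 bases: atTaacctgtacactgttatcttcatta
Gm28438, first 28 bases: atCaacctgtacactgttatcttcatta
mt-Co1, bases 1054 to 1113: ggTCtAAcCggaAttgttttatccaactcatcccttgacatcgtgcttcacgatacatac
Gm29216, bases 1 to 60: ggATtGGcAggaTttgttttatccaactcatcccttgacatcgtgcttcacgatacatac

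How little separates the identical pairs is seen in mt-Nd4l, a complex I subunit gene at chrM:9877-10173. Only the last 3 of its 297 bases, in capitals, are absent from the annotated copy.

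mt-Nd4l: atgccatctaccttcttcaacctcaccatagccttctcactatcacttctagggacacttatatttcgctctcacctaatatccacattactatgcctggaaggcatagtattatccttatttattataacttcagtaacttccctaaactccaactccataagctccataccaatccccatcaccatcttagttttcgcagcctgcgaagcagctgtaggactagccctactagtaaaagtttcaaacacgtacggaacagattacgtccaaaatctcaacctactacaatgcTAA

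The share of 50-base windows of each gene that occur in no other annotated transcript measures the same thing. It was 0% for mt-Co2, 0.136% for mt-Co3, 0.475% for mt-Atp6, 1.21% for mt-Nd4l and 2.01% for mt-Nd3. It was 37.8% for mt-Nd4 and 48.9% for mt-Co1, whose copies cover only a part of the gene. It was 91.8% for mt-Nd2, 92.4% for mt-Nd5, 99.0% for mt-Rnr2 and 100% for mt-Nd1, mt-Nd6, mt-Cytb, mt-Atp8 and mt-Rnr1. In all, 17 nuclear genes matched mitochondrial sequence over at least 100 bases at 90% identity or more. The 10 outside the chromosome 1 block were pseudogenes that held at most 1.05 expected counts in a library, or at most 39 estimated counts in the read-based tables.

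The 37 genes held 8062 expected counts in replicate 1, 4416 in replicate 2 and 7415 in replicate 3. That was 0.0580%, 0.0225% and 0.0383% of all expected counts, or 0.0396% ± 0.0178 (SD, n = 3). The 95% Wilson intervals were 0.0568 to 0.0593%, 0.0219 to 0.0232% and 0.0375 to 0.0392%, so the libraries differed by more than counting error; such intervals cover counting error only. In these bulk libraries, fewer cells of a type and less RNA per cell cannot be told apart. Mitochondrial RNA is made outside the nucleus, and how much of it stayed in the chromatin fraction was not measured. With the 7 chromosome 1 copies added, the shares were 0.0725%, 0.0276% and 0.0474%. The read-based tables gave 0.0467%, 0.0166% and 0.0312% without the copies, the same order of libraries.

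Most of the mitochondrial counts belonged to complex IV, the cytochrome c oxidase that passes electrons to oxygen, whose 3 mitochondrial genes held 57.2%, 61.1% and 54.4% of them in replicates 1, 2 and 3. Of these complex IV counts mt-Co1 held 99.98%, 99.99% and 98.97% of replicates 1, 2 and 3, where most counts of the mt-Co2 and mt-Co3 sequences stood on their chromosome 1 copies. With each gene summed with its copy, mt-Co1 held 76.8%, 78.2% and 77.5% of the complex IV counts, and 77.4%, 78.2% and 77.98% in the read-based tables. The 7 complex I genes, which encode subunits of NADH dehydrogenase, held 20.8%, 26.2% and 30.8%. The small ribosomal RNA held 7.65%, 2.94% and 4.60%, and the large one 3.56%, 4.62% and 2.54%. The transfer RNA genes held 0.

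Genes that reached TPM 1 in all 3 libraries were counted as detected. By the alignment-based values 10 of the 37 genes were: 8 of 13 protein genes, both ribosomal RNAs and no transfer RNA. Of all annotated genes 20.2% passed the same rule, and of protein-coding genes 39.3%. By the read-based values 17 of 37 were detected: 12 protein genes, both ribosomal RNAs and 3 transfer RNAs, where 32.6% of all genes and 49.9% of protein-coding genes passed. The 5 protein genes that missed the rule in the alignment-based tables (mt-Co2, mt-Co3, mt-Atp6, mt-Nd3 and mt-Nd4l) are those whose sequence is almost wholly present in a chromosome 1 copy. With each gene summed with its copy, a rule added after the values were seen, all 13 protein genes and both ribosomal RNAs passed.

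**Figure D1:**
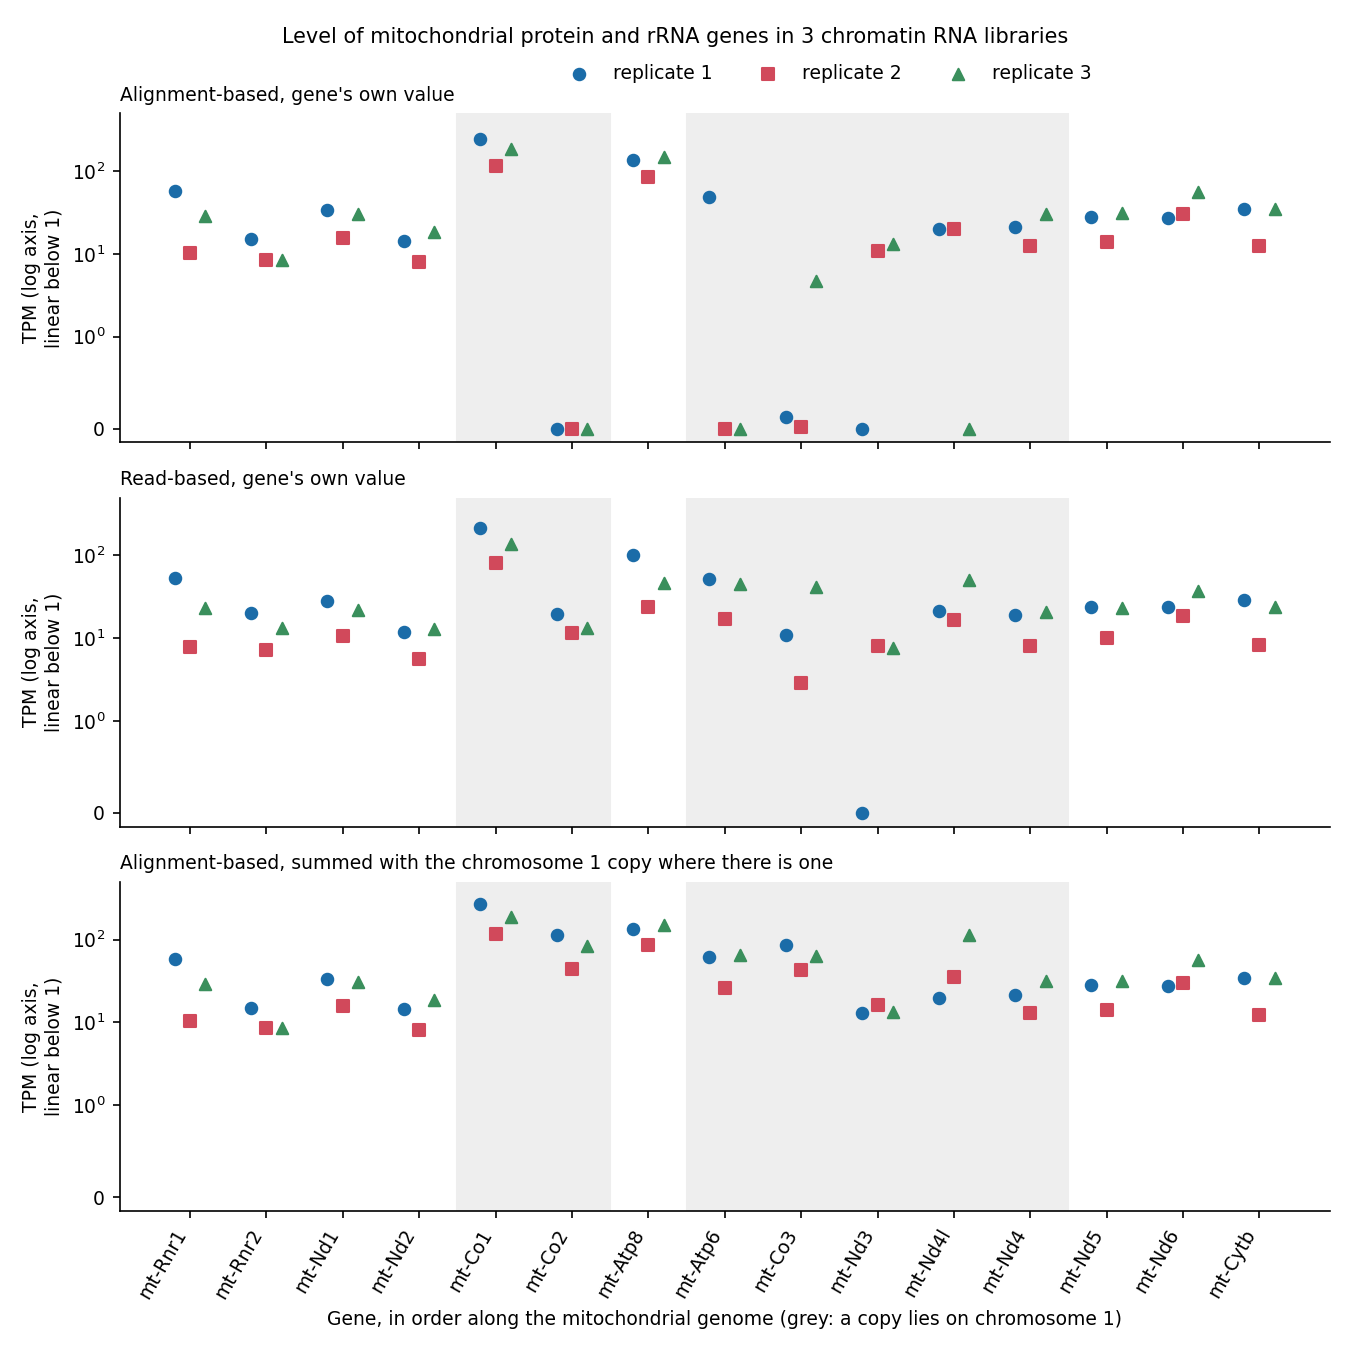
TPM of the 13 protein and 2 ribosomal RNA genes in each of the 3 libraries (points, log axis, linear below 1), in the order of the mitochondrial genome, as given by both quantifications and after each gene with a chromosome 1 copy (grey) was summed with it. Values at or near 0 in the upper panels lie in grey columns only, and none is left in the lowest panel.

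mt-Co2, which encodes the oxidase subunit that accepts electrons from cytochrome c, had 0 expected counts in all 3 libraries of the alignment-based tables. Its copy Gm28661 held 798, 341 and 601 expected counts in replicates 1, 2 and 3. The read-based tables gave mt-Co2 176, 162 and 158 estimated counts and the copy 704, 253 and 516. Both quantifications therefore had counts for the shared sequence in every library, and both placed most of them on the pseudogene. The deposited posterior mean TPM of mt-Co2 was 28.1, 15.7 and 18.7, with credible intervals (their level is not stated) of 0.00148 to 88.6, 0.000352 to 37.1 and 0.000122 to 48.1. Since every window of mt-Co2 also occurs in another transcript, which of the 2 loci gave these reads cannot be told apart, and its TPM of 0 is not a measurement of absence.

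mt-Co3, another core subunit of the same oxidase, had 1.10, 0.150 and 41.7 expected counts in replicates 1, 2 and 3, beside 714, 411 and 516 for Gm28437. In the read-based tables it had 120, 48.6 and 599, beside 659, 436 and 41.1. In replicate 3 alone the read-based tables gave most of the pair's counts to the mitochondrial gene (93.6%), while the alignment-based tables gave it 7.48%. The 2 quantifications thus gave opposite divisions for the same library.

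mt-Atp6, which encodes the subunit that forms the proton path of ATP synthase, had 338, 0 and 0 expected counts in replicates 1, 2 and 3. Its copy Gm10925 had 88.3, 202 and 470. The read-based tables gave the gene 464, 240 and 534 and left at most 6.74 counts for the copy. mt-Atp6 therefore looked present in 1 library and absent in the others in one table, and present in all in the other.

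mt-Nd3, a small complex I subunit gene, had 0, 21.1 and 25 expected counts, with 32.0, 10.9 and 0 on Gm28438. mt-Nd4l, another, had 35.0, 25.8 and 0, with 0, 19.2 and 142 on Gm10222. In the alignment-based values of both pairs replicates 1 and 3 were opposites, with all counts on the gene in one and on the copy in the other, and replicate 2 was divided. Read-based, mt-Nd4l held 100% of its pair in all 3 libraries, and mt-Nd3 100% in replicates 2 and 3 and almost none in replicate 1. mt-Nd4 and mt-Co1, which have long stretches of their own, kept 95.9 to 100% and 92.3 to 100% of their pair's expected counts. For mt-Nd4 the read-based share was 85.9 to 100%. For mt-Co1 the copy Gm29216 had 386 expected counts in replicate 1 and 0 in the other libraries, and 491, 0 and 0 in the read-based tables.

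Summed over the 6 pairs without mt-Co1, the copies held 69.3%, 76.8% and 73.1% of the counts in replicates 1, 2 and 3 of the alignment-based tables, and 53.8%, 47.1% and 23.8% in the read-based tables. The summed counts themselves were higher in the read-based tables. The ratio of read-based to alignment-based counts of a pair ran from 1.09 to 1.46 over the 7 pairs and 3 libraries (median 1.16). For the 6 protein genes without a chromosome 1 copy the same ratio ran from 1.08 to 1.38. In counts, the 2 quantifications thus disagreed more on the division of a pair than on its total. Library totals also differ between the tables, so similar counts are not similar levels. The mean summed TPM of each of the 7 pairs was lower in the read-based tables. It was 190 alignment-based and 151 read-based for mt-Co1, and 56.8 and 29.5 for mt-Nd4l.

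**Figure D2:**
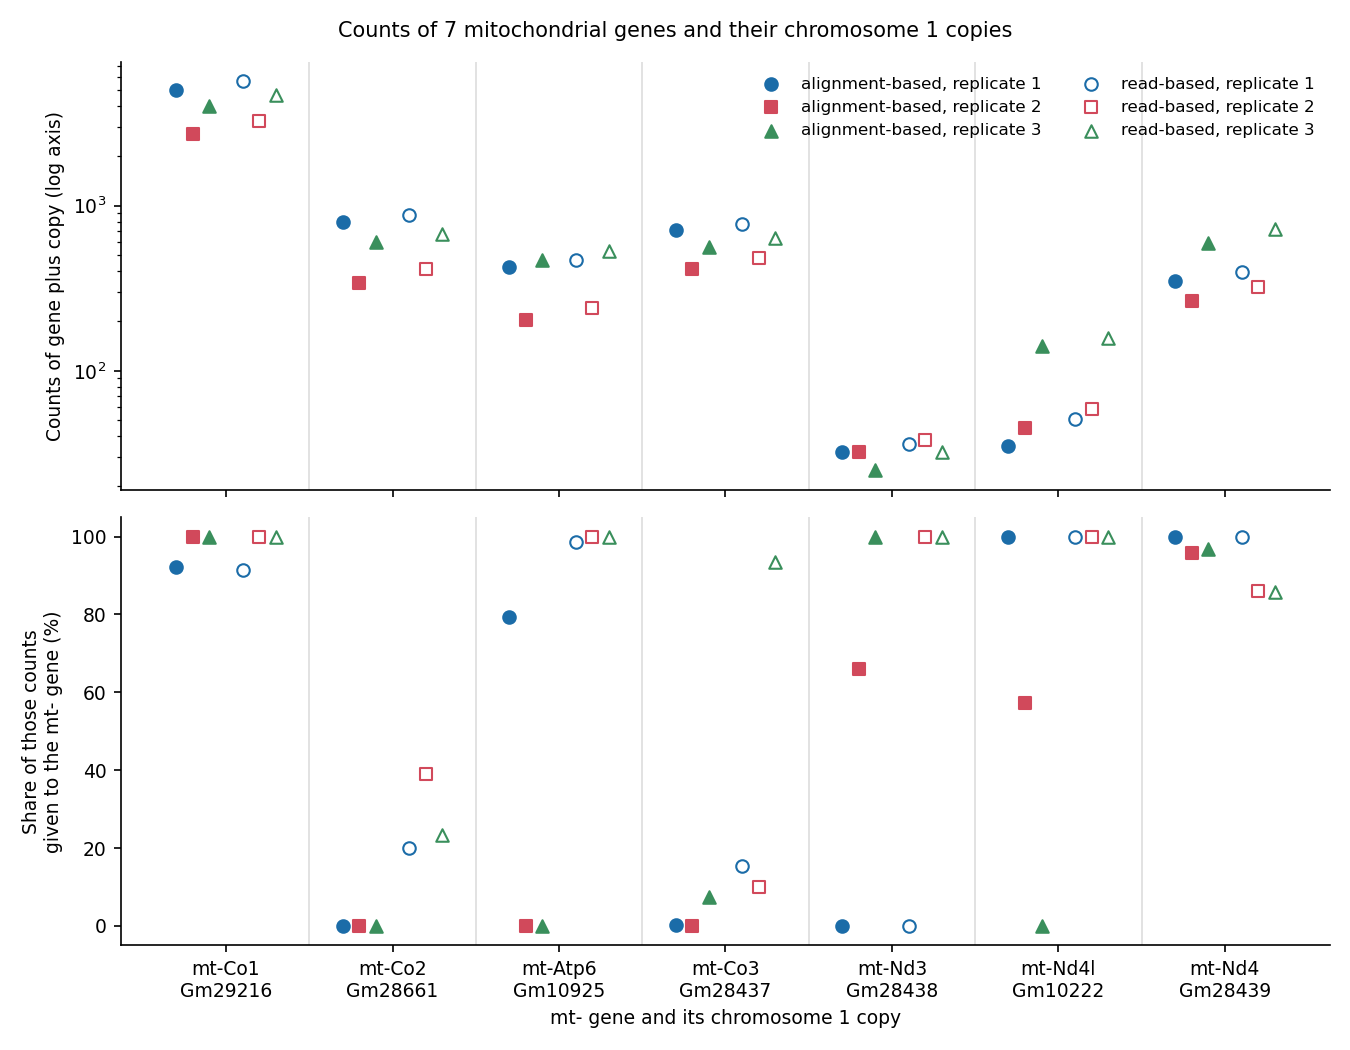
Counts of each mt- gene plus its chromosome 1 copy in each library (upper panel, log axis) and the percentage of those counts given to the mt- gene (lower panel), for the alignment-based (filled) and read-based (open) tables. The totals of the 2 quantifications lie close together, with ratios of 1.09 to 1.46, while the share given to the mt- gene runs from 0 to 39.03% for mt-Co2 and over most of the axis for mt-Co3, mt-Atp6, mt-Nd3 and mt-Nd4l.

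mt-Co1, at chrM:5328-6872, encodes the subunit that holds the catalytic centre of cytochrome c oxidase, and it had the highest level of the 13 protein genes in each library and in both quantifications. Its TPM was 247, 116 and 186 in replicates 1, 2 and 3, or 183 ± 65.5 (SD, n = 3). Among 21951 protein-coding genes it ranked 271 by mean TPM, and 526 in the read-based tables. Its expected counts per annotated kilobase were 2984, 1748 and 2586. No other mitochondrial gene exceeded 646 on that scale before summing. Replicate 2 was the lowest library.

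Summed with their copies, the other complex IV genes came next per kilobase. mt-Co2 had 1167, 499 and 879 counts per kilobase in replicates 1, 2 and 3. mt-Co3 had 912, 524 and 712. mt-Atp6 had 626, 297 and 690. These 3 genes are neighbours inside the block, so their sums hold whatever the chromosome 1 locus gave, and its part was not tested. The other 9 protein genes had means of 85.3 (mt-Nd3) to 340 (mt-Cytb) counts per kilobase.

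mt-Atp8 had the second highest TPM, 136, 85.6 and 149, or 123 ± 33.5 (SD, n = 3). This level rests on 81, 30 and 50 expected counts and on effective lengths of 44.1, 19.4 and 20.2 bases for a gene of 204. Per annotated kilobase mt-Atp8 had 397, 147 and 245 counts, a mean of 263 that lies among those of the complex I genes. In the read-based tables its TPM was 102, 23.7 and 45.9. The high rank of mt-Atp8 is thus a rank on the TPM scale only.

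Of the genes without a chromosome 1 copy, mt-Cytb encodes the catalytic core of complex III, which passes electrons from ubiquinol to cytochrome c. Its TPM was 34.5, 12.3 and 34.6 in replicates 1, 2 and 3. Among the complex I genes, mt-Nd1, which forms part of the ubiquinone site, had 33.7, 15.8 and 30.6, and mt-Nd5, a proton-pumping subunit, had 28.0, 14.1 and 31.6. In all 3 genes replicates 1 and 3 lay close together and replicate 2 was the lowest. mt-Nd2, another proton-pumping subunit, was lower at 14.3, 8.09 and 18.6.

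After summing, the order by mean TPM was mt-Co1 (190), mt-Atp8 (123), mt-Co2 (80.5), mt-Co3 (63.9), mt-Nd4l (56.8), mt-Atp6 (51.0), mt-Nd6 (37.8), mt-Cytb (27.1), mt-Nd1 (26.7), mt-Nd5 (24.6), mt-Nd4 (22.0), mt-Nd3 (14.2) and mt-Nd2 (13.7). The mean of mt-Nd4l rested on replicate 3: its summed TPM was 19.8, 35.3 and 115, a mean of 27.5 without that library, and per kilobase its 249 counts were above only those of mt-Nd2 and mt-Nd3. The ranges over libraries of every pair of neighbours in this order overlapped. mt-Co1, mt-Atp8 and mt-Co2 were each above the next gene in all 3 libraries. The read-based tables gave mt-Co1 (151), mt-Co2 (60.8), mt-Atp8 (57.2) and mt-Co3 (48.1) as the first 4, and mt-Nd2 (10.2) and mt-Nd3 (8.88) as the last.

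mt-Nd6, at chrM:13552-14070, is the one protein gene read from the other strand. Its RNA sequence is 28.1% G and 5.97% C, where the other 12 protein genes have 5.88 to 16.1% G and 22.1 to 29.97% C. It encodes a membrane subunit of complex I. Its TPM was 27.3, 29.96 and 56.1 in replicates 1, 2 and 3, or 37.8 ± 15.9 (SD, n = 3), and by the read-based values 24.1, 18.5 and 37.4. Replicate 3 was the highest library in both, as it was for mt-Nd2 and mt-Nd4.

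Against the median of the other 12 protein genes, log2(TPM + 1) of mt-Nd6 was higher by 0.15, 1.208 and 1.197, a mean of 0.85 ± 0.61 (SD, n = 3; 1.80-fold; exact two-sided sign-flip test, p = 0.25, the smallest that 3 libraries allow). That median includes genes whose counts went to their copies. Against mt-Nd1, mt-Nd2, mt-Nd5 and mt-Cytb alone the difference was -0.16, 1.13 and 0.83, below 0 in replicate 1 and above 0 in the other libraries (exact sign-flip p = 0.50). With summed pairs it averaged 0.15 (exact sign-flip p = 0.75). The sign of the difference thus depended on the library and on how the pairs were treated. mt-Nd6 overlaps the end of mt-Nd5 by 14 bases, and the part of antisense reads in its counts was not tested.

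The ribosomal RNAs of the organelle form the core of its own ribosome. mt-Rnr1, the small subunit RNA at chrM:70-1024, had TPM 57.9, 10.3 and 29.1 in replicates 1, 2 and 3. mt-Rnr2, the large subunit RNA at chrM:1094-2675, had 15.0, 8.53 and 8.49. The libraries had been depleted of ribosomal RNA, and the sources used here do not say whether that step reached the mitochondrial ribosomal RNAs, so their levels are those after depletion.

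The log2 ratio of mt-Rnr2 to mt-Rnr1 in TPM was -1.95, -0.27 and -1.78, a mean of -1.33 ± 0.92 (SD, n = 3; 0.397-fold; exact two-sided sign-flip test, p = 0.25, the smallest possible). The read-based tables gave -1.39, -0.11 and -0.79. The large subunit RNA was the lower in 3 of 3 libraries in both. The 2 quantifications also differed more on mt-Rnr2 than on any other gene without a chromosome 1 copy. Its read-based count was 1.75, 1.43 and 2.51 times the expected count in replicates 1, 2 and 3, where mt-Rnr1 had 1.19, 1.32 and 1.29. Of the 50-base windows of mt-Rnr2, 99.0% occur in no other transcript, and the rest occur in the nuclear gene Gm20594. The part of Gm20594 in this difference was not tested.

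Replicate 2 had the lowest level of most mitochondrial genes. CPM is counts scaled to 1 common library total, with no length correction. Of the 8 protein and ribosomal RNA genes without a chromosome 1 copy, 7 had their lowest CPM in replicate 2, the exception being mt-Rnr2. By the read-based values all 8 were lowest in replicate 2. Of the 8622 detected nuclear protein-coding genes, 19.7% had their lowest value there. CPM in replicate 1 was more than 2 times that in replicate 2 for 6 of the 8 genes, and for 4.27% of those nuclear genes. The ratio was 6.69 for mt-Rnr1, 3.81 for mt-Atp8, 3.26 for mt-Cytb, 2.55 for mt-Nd1, 2.22 for mt-Nd5, 2.09 for mt-Nd2, 1.98 for mt-Rnr2 and 1.28 for mt-Nd6. The median nuclear gene had 0.862. The 8 genes are transcribed as parts of shared precursors and are not independent.

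Of the pairs summed with their copies, the ratio of replicate 1 to replicate 2 was 2.61 for mt-Co1, 3.30 for mt-Co2, 2.97 for mt-Atp6, 2.45 for mt-Co3 and 1.87 for mt-Nd4. It was 1.41 for mt-Nd3 and 1.10 for mt-Nd4l, the pairs with the fewest counts. mt-Nd4l stood apart in replicate 3, where its pair had 142 expected counts beside 35.0 and 45.0 in replicates 1 and 2. The read-based tables gave that pair 159 beside 51.0 and 59.0.

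**Figure D3:**
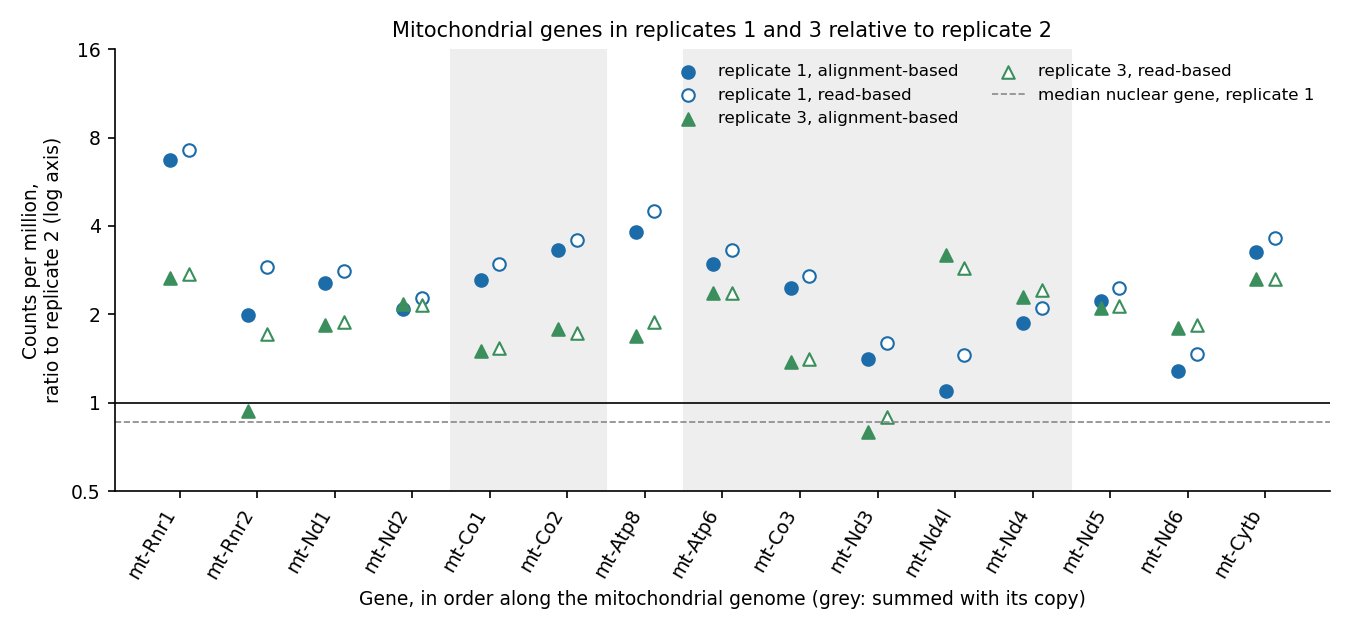
CPM in replicates 1 and 3 divided by that in replicate 2 (log axis), for the 13 protein genes (in grey, summed with the copy) and 2 ribosomal RNA genes, in both quantifications. The dashed line is the median detected nuclear protein-coding gene in replicate 1 at 0.862; the alignment-based ratio is highest for mt-Rnr1 at 6.69, and only mt-Rnr2 and mt-Nd3 have a point below 1, in replicate 3.

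Over 3 libraries the median coefficient of variation in TPM was 38.2% for the 6 protein genes without a chromosome 1 copy. For the 8622 nuclear protein-coding genes it was 22.7%. It was 87.3% for the genes with a chromosome 1 copy on their own values and 42.1% once they were summed. Without replicate 2 it was 7.59% for the 6 genes, 22.2% for the summed pairs and 15.6% for the nuclear genes, so the excess of the 6 genes rested on that library. Without replicate 1 it was 49.7% for the 6 genes and 17.2% for the nuclear genes, and without replicate 3 it was 43.1% and 23.5%.

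Several other measures also differed between these libraries. The share of mitochondrial counts followed the order of the starting amounts, 1 µg, 500 ng and 250 ng. Spike-in sequences held 0.944%, 0.143% and 0.185% of read-based counts in replicates 1, 2 and 3. The ribosomal-RNA-like genes of chromosome 17 held 11.8%, 21.5% and 23.1% of expected counts. A list of 12 abundant cytoplasmic messenger RNAs held 0.264%, 0.193% and 0.190%. With 1 library for each starting amount these cannot be told apart from the replicate, and their part in the mitochondrial share was not tested.

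Mature transfer RNAs carry amino acids to the ribosome. The 22 mitochondrial transfer RNA genes are 59 to 75 bases long, while the labels give a library size range of 250 to 400 with no unit. All 22 had 0 expected counts in all 3 libraries, and the deposited effective length of each was 0. At an effective length of 0 these counts set no upper limit on the level of the transfer RNAs. The read-based tables, with effective lengths of 13.2 to 17.04 bases, gave them 17, 7 and 18 estimated counts, 42 in all. Levels of mature transfer RNAs were therefore not measurable at this depth and size range.

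Of those 42 counts, the 8 transfer RNA genes annotated on the minus strand held 35 and the 14 on the plus strand held 7. The minus-strand genes had 14, 6 and 15 counts in replicates 1, 2 and 3, and the plus-strand genes 3, 1 and 3. mt-Ts1, which lies inside the span of the chromosome 1 block and overlaps the end of mt-Co1 by 3 bases, held 13 of the 35, as 0, 2 and 11. Without it the minus-strand genes held 22. The anticodon of each transfer RNA was taken from a list made beforehand. Where it occurs more than once, the site with the most base pairs in the stem around it was marked. The sequences of the 5 transfer RNAs with the most counts are shown with the anticodon in capitals.

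mt-Ts1 (serine): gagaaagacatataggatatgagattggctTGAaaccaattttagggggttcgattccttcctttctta
mt-Tp (proline): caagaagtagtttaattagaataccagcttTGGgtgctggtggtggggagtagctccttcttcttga
mt-Te (glutamate): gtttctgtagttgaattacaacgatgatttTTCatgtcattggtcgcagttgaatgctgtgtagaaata
mt-Ta (alanine): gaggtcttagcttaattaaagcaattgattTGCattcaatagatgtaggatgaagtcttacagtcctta
mt-Tc (cysteine): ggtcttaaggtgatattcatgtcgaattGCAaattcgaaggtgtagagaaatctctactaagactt

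All 5 are on the minus strand. Estimated counts were 4, 1 and 2 for mt-Tp, 3, 1 and 1 for mt-Te, 2, 1 and 1 for mt-Ta and 3, 1 and 0 for mt-Tc. mt-Tp, mt-Te and mt-Ta were the 3 transfer RNAs with a count in every library, and with effective lengths this short a single count passed the TPM threshold. The 11 transfer RNAs at 0 in every library were mt-Tf, mt-Tv, mt-Ti, mt-Tq, mt-Tm, mt-Ty, mt-Td, mt-Tg, mt-Tr, mt-Ts2 and mt-Tl2, of which mt-Tq and mt-Ty are on the minus strand. Among them is mt-Tf, the first gene of the genome, which directly precedes mt-Rnr1.

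mt-Tf (phenylalanine): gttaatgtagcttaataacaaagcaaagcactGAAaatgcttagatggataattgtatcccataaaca

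The nuclear genes of the respiratory chain were measured in the same libraries. For mitochondrial and nuclear genes alike, the levels are those of the chromatin fraction, not of whole cells. Of 26 listed nuclear genes 25 were detected in the alignment-based tables, where 39.3% of all protein-coding genes were. The median TPM of the 26 genes there was 7.73, between Ndufa4 (1.23, the lowest) and Atp5b (69.9, the catalytic subunit of ATP synthase). Sdha, a subunit of succinate dehydrogenase, followed at 31.02, and Atp5a1 at 20.4. Ndufa4 was listed under complex I, and the medians with it under complex IV instead were not computed. Complex II has no mitochondrial gene, and its 4 nuclear genes had a median of 8.26. In the other complexes the median of the mitochondrial genes, summed with copies, was above that of the listed nuclear genes: 24.6 against 5.37 in complex I, 27.1 against 3.93 in complex III (1 mitochondrial gene), 80.5 against 16.3 in complex IV and 87.3 against 10.1 in complex V, a median of only mt-Atp8, with its short effective length, and mt-Atp6.

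Within each library, the median log2(TPM + 1) of the 13 protein genes exceeded that of the 26 nuclear genes by 1.90, 0.27 and 2.08, a mean of 1.42 ± 1.00 (SD, n = 3; 2.67-fold; exact two-sided sign-flip test, p = 0.25, the smallest possible). With summed pairs the mean was 2.14, and with only the 6 genes without a chromosome 1 copy 1.59. The read-based mean was 0.42, with a p of 0.50 by the same exact test, so the sign did not hold in all 3 libraries there. With only the protein-coding transcripts of the nuclear genes counted, the alignment-based mean was 2.73. The TPM of the 26 nuclear genes summed to 270, 395 and 293 in replicates 1, 2 and 3, highest in the library where the mitochondrial genes were lowest.

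**Figure D4:**
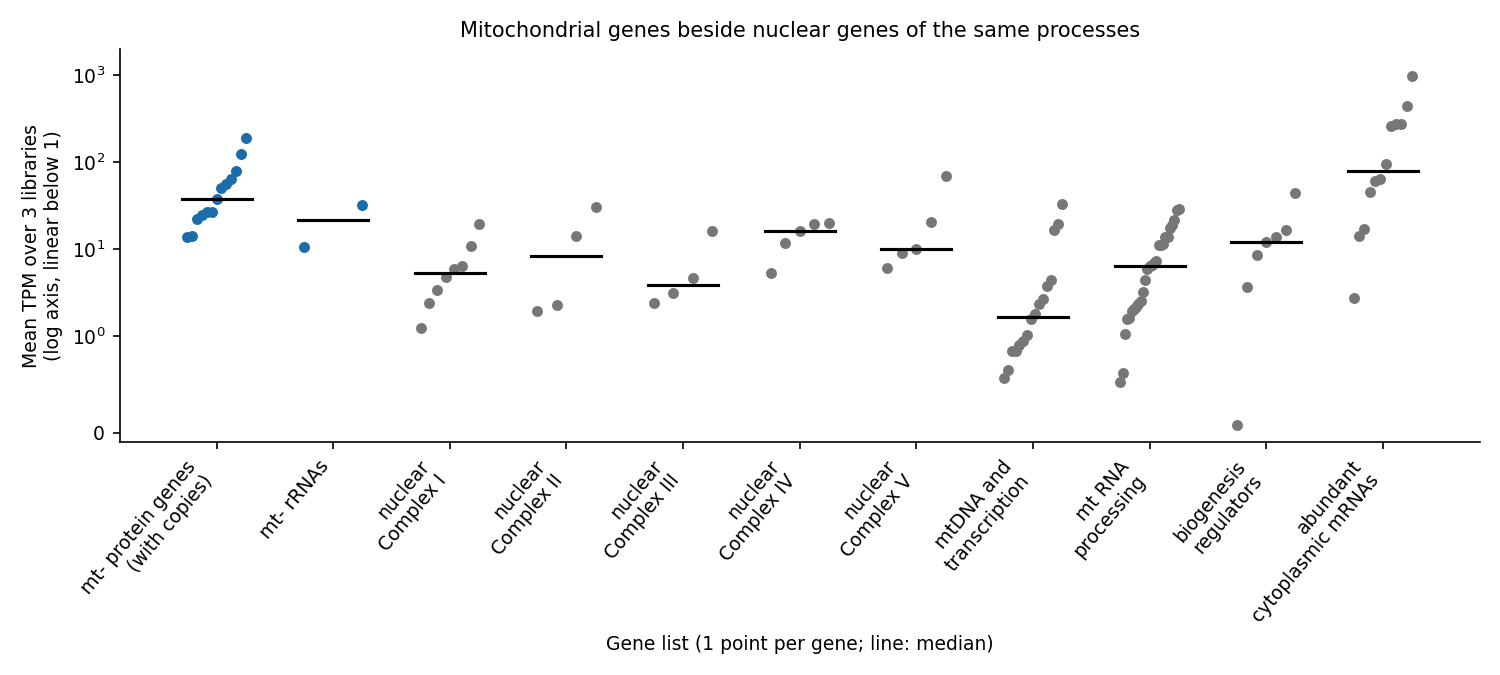
Mean TPM over 3 libraries (log axis, linear below 1) of each mitochondrial protein gene summed with its copy, of the 2 mitochondrial ribosomal RNAs and of nuclear gene lists, 1 point per gene with the median as a line. The mitochondrial protein genes range from 13.7 to 190, and the nuclear respiratory chain medians lie between 3.93 and 16.3.

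Of 16 listed genes that copy and transcribe mitochondrial DNA 8 were detected by the alignment-based values, with a median TPM of 1.68. By the read-based values 14 were, with a median of 3.03. Of all protein-coding genes 39.3% were detected by the alignment-based values and 49.9% by the read-based values. Polg, the mitochondrial DNA polymerase, was highest at 33.2 ± 8.99 (SD, n = 3), followed by Mterf3, a repressor of mitochondrial transcription, at 19.5 and Ssbp1, the single-strand binding protein, at 16.7 in the alignment-based tables. In the read-based tables Mterf3 was the higher, at 95.3 beside 29.3 for Polg. Polrmt, the RNA polymerase of the organelle, had TPM 4.04, 4.10 and 5.22 in replicates 1, 2 and 3. Tfam, which packages and activates mitochondrial DNA, had 0.780, 1.41 and 0.660, with a read-based mean of 2.81. The lowest was Twnk, the replicative helicase, at a mean of 0.563.

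Of 27 genes for processing and decay of mitochondrial RNA 23 were detected by the alignment-based values, with a median of 6.38, where 39.3% of all protein-coding genes were. Pnpt1, the exoribonuclease of the degradosome, was highest at 29.0, then Trnt1, which adds the CCA end to transfer RNAs, at 28.2, and Fastk at 21.6; by the read-based values Tbrg4 was second, at 46.3. Elac2, which cuts the 3′ end of transfer RNAs from the precursors, had 2.56, and Hsd17b10, a subunit of the enzyme that cuts the 5′ end, was the lowest at 0.527. Lrpprc, which stabilises mitochondrial messenger RNAs, had 11.6. Of 7 regulators of mitochondrial biogenesis 6 were detected, led by Esrra at 44.9, Pprc1 at 16.5 and Nrf1 at 14.0. Ppargc1a, the coactivator named for that role in other tissues, had 1 expected count in replicate 1 and 0 in the others, and a read-based mean TPM of 1.84 ± 1.06 (SD, n = 3).

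Other RNAs of the fraction set the scale of these levels. The 12 abundant cytoplasmic messenger RNAs had a median TPM of 79.9 (read-based 202), from Cst3 at 2.75 to Tmsb4x at 277, Actb at 445 and Fth1, the ferritin heavy chain, at 980. The 8 listed nuclear noncoding RNAs had a median TPM of 2440, led by Rmrp (69592), Malat1 (24577) and Rn7sk (14882), with Kcnq1ot1 lowest at 9.55. That order is one of TPM only. In CPM, with no length correction, Malat1 had 91545 to 96166, Neat1 9574 to 17706, Rmrp 3230 to 4679 and Rn7sk 1005 to 2117. Summed with its copy, mt-Co1 at 190 was above the median of the cytoplasmic list in the alignment-based tables, and at 151 it was below that median in the read-based tables, so this order turned with the quantification.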

How the data were processed

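Each of 3 libraries had gene and transcript tables made by the authors from alignments, and a transcript table made from the reads, on mm10 with GENCODE M21 per the labels and file headers. No source used here names the programs. The deposited values are expected counts (estimated reads per feature, not whole), TPM, effective lengths and, as a signal per gene, the credible bounds of a posterior mean TPM. Read-based transcripts were summed per gene. Levels were compared within libraries on log2(TPM + 1), and the ribosomal RNAs with each other on log2 of TPM. Fold values from log2(TPM + 1) are ratios of TPM + 1, not of TPM. Differences were tested with exact two-sided sign-flip tests over libraries. Pair sums divided summed counts by the mt- gene's effective length. Copies were found with blastn 2.17.0 (at least 100 bases, 90% identity) among the reference transcripts, and scripts ran in Python 3.11.15. Named were all protein and ribosomal RNA genes, the 5 transfer RNAs with most counts and those at 0, the chromosome 1 copies, and the 3 highest genes and the lowest of each nuclear list; other genes were picked for their role. Members and lists were chosen with earlier results of these data known. The calculations were tested on simulated data. One erythroid marker is not reported here.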

Additional observations from a re-analysis of the deposited data

How the results depend on the processing

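No paired analysis was possible because all 3 libraries belong to 1 group. Of 64 alternative values 10 moved by more than the spread or 1.5 times; in the other 54, differences with a test are counted by direction alone, and among them the mt-Nd6 difference fell from 0.85 to 0.15 with summed pairs and the mitochondrial over nuclear difference from 1.42 to 0.42 in the read-based tables. With nuclear protein-coding plus mitochondrial genes as the total, the share of counts rose to 0.0630%. The read-based tables raised the detected genes from 10 to 17 and the transfer RNA share of mitochondrial counts from 0% to 0.157%. The order of the 13 protein genes by TPM depended most on the processing: 2 genes kept their rank in the read-based tables, 8 per annotated kilobase, 3 with the posterior mean TPM and 2 with summed pairs, while mt-Co1 stayed highest in each. Leaving out 1 library at a time left 6 to 13 genes at their rank and gave a median coefficient of variation of 22.8 to 54.1% (42.2% with all libraries), 22.8% being without replicate 2. Over the same omissions the share ran from 0.0304 to 0.0482%, the detected genes from 10 to 11, the mitochondrial over nuclear difference from 1.09 to 1.99, the ribosomal RNA ratio from -1.86 to -1.03 and the mt-Nd6 difference from 0.67 to 1.202 on the log2 scale. The cause of each move was not tested. Summed pairs and genes without a chromosome 1 copy were alternatives chosen after seeing the data. With 3 libraries the sign-flip tests cannot go below p = 0.25 (exact), so none could pass.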
